A study of Mus musculus with 9 samples.

Results

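Transcripts of the complement genes C3, C4a, C3ar1 and C5ar1 were followed in CD45 and CD11b positive cells, labelled as microglia (the resident macrophages of the brain), from mice after a transient ischemic attack (TIA) or after sham surgery. These 4 genes were chosen by name as the complement components and anaphylatoxin receptors that act downstream of C1q, out of 757 genes in the deposited table, and all 4 were measured in every sample. The groups were Sham (the same surgery as for TIA, but with no filament inserted), TIA 24h and TIA 3d, with 3 animals each. In both TIA groups a filament had closed the middle cerebral artery for 5 min, and the brain was taken 24 h or 3 d later. Per the methods and the figure legend of this assay, the mice were males of 10 to 12 weeks. The strain is not named for this assay, and is taken to be the wild-type C57BL6/J of the methods. No transgene or further treatment is named for this assay. Sham and TIA brains alike were kept with actinomycin D, which blocks transcription, dissociated with papain and enriched on a density gradient. Live cells that carried both CD45 and CD11b and did not take up 7-AAD were then sorted, and about 65 ng of RNA per sample was hybridized to the mouse neuroinflammation probe set, whose molecules are counted singly on an nCounter instrument without amplification. The gate holds every CD45 and CD11b positive cell, so that border macrophages, monocytes and neutrophils could also pass it.

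Complement is a cascade of plasma and tissue proteins that tags particles for removal. C1q bound to a target leads to cleavage of C4 and then of C3, whose larger fragment stays on the target and is read by the integrin receptor CR3 (Itgam with Itgb2), while the small fragments C3a and C5a are released as signals. C3ar1 and C5ar1 encode the G protein-coupled receptors for C3a and C5a, which direct the movement and activation of myeloid cells. In the brain, microglia are the main source of C1q and carry CR3 and both anaphylatoxin receptors, whereas C3 and C4 are also made by astrocytes, and C4 by other glia and neurons.

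The deposited values are log2 of counts that the authors divided by the housekeeping probes of the same lane, and the whole counts behind them could be recovered. A lane is the part of the cartridge in which 1 sample is counted. Lanes differed 9.59-fold in their total count over all genes, from 6560 to 62883, and all TIA 3d lanes (29200 to 62883) were deeper than any Sham (6560 to 25582) or TIA 24h lane (7248 to 10929). The microglia label was checked with 14 marker genes, of which 10 were measured. Together they took 17.2, 8.26 and 2.42% of the counts in Sham replicates 1, 2 and 3, while the TIA 24h lanes had 3.4, 2.8 and 1.38% and the TIA 3d lanes 10.8, 13.9 and 7.11%. P2ry12, a purinergic receptor that defines homeostatic microglia, was counted 742, 197 and 13 times in the Sham lanes, 38, 27 and 12 in those of TIA 24h and 652, 596 and 438 in those of TIA 3d. The defining markers were thus low in Sham replicate 3 and in all TIA 24h lanes. In TIA 24h replicates 1 and 3, 10 oligodendrocyte markers had more counts together (598 and 380) than the 10 microglia markers (372 and 100), so that the markers go against the label there. In bulk samples like these, fewer microglia in a sort and less RNA per microglia cannot be told apart. No batch is given in the labels.

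C3ar1 was highest at TIA 3d. Its deposited log2 values were 6.73, 5.48 and 5.14 in the Sham animals, 5.41, 4.89 and 5.68 in those of TIA 24h and 7.68, 6.89 and 7.82 in those of TIA 3d. All 3 TIA 3d values thus lay above all 6 others, Sham replicate 1 came closest to them, and Sham and TIA 24h overlapped. Behind these values stood 111, 41 and 18 counts in the Sham lanes, 27, 16 and 27 in those of TIA 24h and 365, 139 and 411 in those of TIA 3d. As a share of the lane, which does not use the housekeeping probes, C3ar1 had a CPM (counts scaled to the same total in each lane) of 4339, 2752 and 2744 in the Sham lanes, 2470, 2019 and 3725 in those of TIA 24h and 7083, 4760 and 6536 in those of TIA 3d. On that scale too, all TIA 3d lanes lay above all others. The microglia markers, at 7.11% or more of the counts in each TIA 3d lane and at most 3.4% in each TIA 24h lane, moved with C3ar1 between these groups. As a share of the lane, the oligodendrocyte markers went the other way. They took 0.31 to 0.596% in the TIA 3d lanes, below the 2.44 to 5.47% of TIA 24h. Their summed counts did not separate these groups, since 172 to 307 (TIA 3d) overlapped 193 to 598 (TIA 24h). The shares of the astrocyte, neuron and endothelium markers were likewise lower in the deeper TIA 3d lanes. The part of microglia and of these other cells in the result was not tested.

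**Figure D1:**
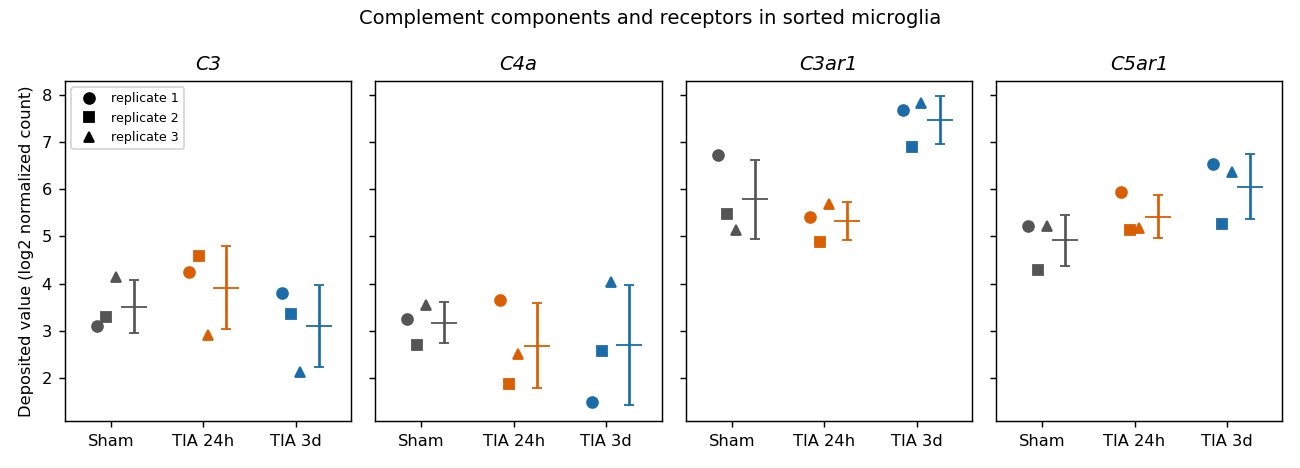
Deposited log2 normalized counts (y axis) of C3, C4a, C3ar1 and C5ar1 by group (x axis), with a symbol per animal and the mean with its SD beside the points (n = 3 per group). C3ar1 at TIA 3d lies between 6.89 and 7.82, above every Sham and TIA 24h value, whereas C3 and C4a overlap in all groups.

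Between the time points, C3ar1 was the 1 member of 4 that passed in limma, with 7.46 ± 0.50 (SD, n = 3) at TIA 3d and 5.32 ± 0.40 at TIA 24h. The difference was 2.14 on the log2 scale (SE 0.49, 95% interval 1.08 to 3.19, limma adjusted p = 0.0229), or 4.4-fold. In the same contrast 11.6% of all genes were called higher at TIA 3d, and in 22.1% all TIA 3d values lay above those of TIA 24h, as they did for C3ar1. The median gene differed by -0.25, so that C3ar1 lay 2.38 above it and ranked 44 of 757 from the highest rise. The difference was 2.48 with lanes centred on their median (adjusted p = 0.0164) and 1.16 with counts scaled to the lane total (adjusted p = 0.045), but 0.57 after quantile normalization (adjusted p = 0.496), and it turned to -0.67 (adjusted p = 0.528) when each lane was centred on the microglia markers. Over all alternatives the adjusted p ran from 0.00118 to 0.987. The limma call was also lost without TIA 24h replicate 2 (1.92, adjusted p = 0.0653), TIA 24h replicate 3 (2.31, 0.0884), TIA 3d replicate 1 (2.03, 0.0827) or TIA 3d replicate 3 (1.96, 0.0788). In each of these 4 fits 0 of 757 genes passed, and in the other 5 between 85 and 226 did, so that the loss was not particular to C3ar1.

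Against Sham, where C3ar1 stood at 5.79 ± 0.84, the value at TIA 3d was higher by 1.67 (SE 0.49, 95% interval 0.62 to 2.73), and did not pass over all genes (limma adjusted p = 0.158). Leaving out Sham replicate 1, the deepest Sham lane and the lane with the largest share of microglia marker counts, the difference was 2.15 and passed, as did 84 of 757 genes (limma adjusted p = 0.0121; over all alternatives 0.00511 to 0.973). It was smaller, and did not pass, after quantile normalization (0.39), with the total count as covariate (0.39), with lanes centred on the microglia markers (0.61), with counts scaled to the lane total (0.90) and in voom (0.93). At TIA 24h the difference from Sham was -0.46 (SE 0.49, 95% interval -1.52 to 0.59, limma adjusted p = 0.812), and it was 0.01 without Sham replicate 1. The moderated F test over the 3 groups gave an adjusted p of 0.0533 for C3ar1 in limma.

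Over the 9 lanes C3ar1 followed the log2 total count of the lane, with r (Pearson) at 0.959 (exact permutation p = 0.000361, adjusted over 4 members 0.00144) and a rho (Spearman) of 0.867 (exact permutation p = 0.00451, adjusted 0.018). Without TIA 3d replicates 1 and 3, the 2 lanes whose totals were farthest from the median, r was 0.89 (exact permutation p = 0.0139) and rho 0.714 (p = 0.0881). Over the 6 Sham and TIA 24h lanes, r was 0.816 (exact permutation p = 0.05) and rho 0.543 (p = 0.297). Since every TIA 3d lane was deeper than every other lane, depth and time point cannot be told apart for C3ar1 at TIA 3d, and the 3 lanes of 1 group are too few for a value within TIA 3d. The genes most like C3ar1 by Pearson r over the 9 lanes were Egr1 (0.963), an immediate early transcription factor, Mbd3 (0.957), a subunit of a chromatin remodelling complex, and Rps9 (0.956), a ribosomal protein. After centring lanes on their median, they were Xiap (0.978), an inhibitor of apoptosis, Mbd3 (0.969) and Egr1 (0.968). These are descriptions of 9 lanes, in which the depth of a lane enters every gene.

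Because C3ar1 was the member that passed, the 250 bases before its annotated start are shown, from RefSeq on GRCm38.p6, chr6:122856158-122856407, minus strand, 5′ to 3′. Capitals mark TGACTCA, the letters that the Fos and Jun family (AP-1) is known to bind.
C3ar1: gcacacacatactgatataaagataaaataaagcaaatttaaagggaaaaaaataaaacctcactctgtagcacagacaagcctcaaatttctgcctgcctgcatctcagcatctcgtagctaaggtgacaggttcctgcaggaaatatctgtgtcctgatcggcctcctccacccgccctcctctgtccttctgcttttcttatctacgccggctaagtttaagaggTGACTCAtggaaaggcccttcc
The match covers bases 22 to 16 before the start. On either strand (TGACTCA or TGAGTCA), 4.46% of the 32851 windows of 250 bases in the table hold it, and the C3 and C5ar1 windows do not. The letters AGGAAG (or CTTCCT), the core that the ETS family with PU.1 is known to bind, occur 3 times in the C5ar1 window, with 2 of the matches overlapping, do not occur in those of C3 and C3ar1, and are held by 29.5% of all windows. Windows were matched for 3 of the 4 members. Both motifs were chosen after the windows had been read, and a match of letters is neither a binding site nor a cause of a level.

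C5ar1, the receptor for C5a, was higher at TIA 3d than in Sham in all 3 animals, by an amount that did not pass. Its log2 values were 5.22, 4.30 and 5.22 in the Sham animals, 5.94, 5.13 and 5.17 in those of TIA 24h and 6.53, 5.26 and 6.36 in those of TIA 3d. TIA 3d replicate 2 lay just above Sham replicates 1 and 3, and TIA 24h overlapped both other groups. In counts it had 39, 18 and 19 in the Sham lanes, 39, 19 and 19 in those of TIA 24h and 165, 45 and 150 in those of TIA 3d. Against Sham (4.91 ± 0.53, SD, n = 3), C5ar1 differed by 1.14 at TIA 3d (6.05 ± 0.69; SE 0.47, 95% interval 0.12 to 2.16, limma adjusted p = 0.209) and by 0.50 at TIA 24h (5.41 ± 0.46; 95% interval -0.52 to 1.52, adjusted p = 0.793). The difference at TIA 3d was 0.15 after quantile normalization, 0.36 with counts scaled to the lane total, 0.07 with lanes centred on the microglia markers, 0.38 in voom and 0.58 with the total count as covariate. It was 1.30 with median-centred lanes, and 1.76 with array weights, where it passed along with 174 of 757 genes (limma adjusted p = 0.00862; over all alternatives 0.00862 to 0.973).

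In CPM the order of the groups was not the same for C5ar1, with 1525, 1208 and 2896 in the Sham lanes, 3568, 2398 and 2621 in those of TIA 24h and 3202, 1541 and 2385 in those of TIA 3d. Here all 3 groups overlapped. Between the time points, the difference of 0.64 (95% interval -0.38 to 1.66, limma adjusted p = 0.326) turned to -0.33 with counts scaled to the lane total, to -0.50 after quantile normalization and to -2.17 with lanes centred on the microglia markers. C5ar1 gave an r of 0.595 with the log2 total count (exact permutation p = 0.0916, adjusted 0.153; rho 0.667, p = 0.0589, adjusted 0.118), and -0.0888 without TIA 3d replicates 1 and 3 (exact permutation p = 0.873). Over the Sham and TIA 24h lanes r was -0.176 (exact permutation p = 0.753). The genes most like it over the 9 lanes were Ccl2 (r of 0.879), a chemokine for monocytes, Bnip3 (0.869), a mitochondrial protein induced by hypoxia, and Igsf6 (0.861). With lanes centred on their median, they were Ccl2 (0.908), Atg3 (0.897) and Igsf6 (0.89).

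**Figure D2:**
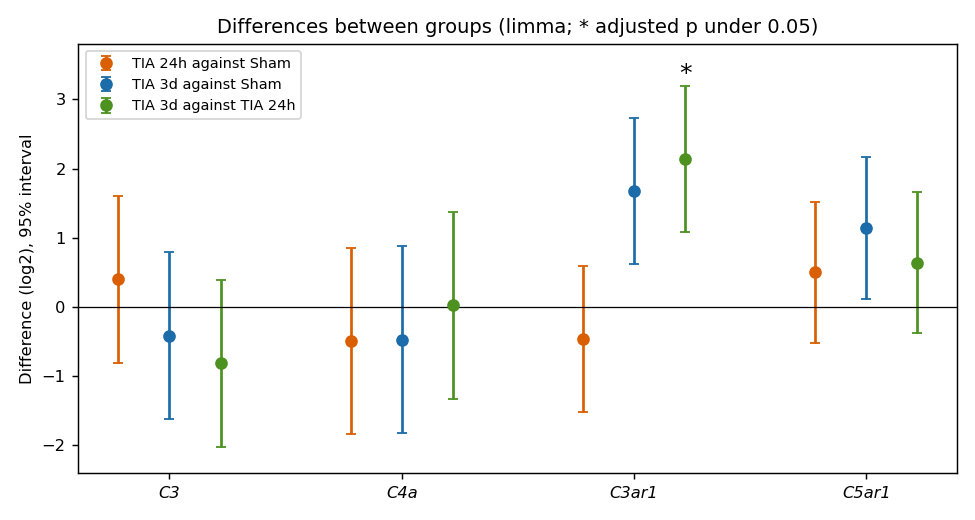
Differences between groups (y axis, log2 scale, with 95% intervals from limma) for each gene (x axis), in the 3 contrasts shown by colour, with an asterisk at an adjusted p under 0.05. The asterisk stands over C3ar1 for TIA 3d against TIA 24h (2.14) and nowhere else, and the intervals of C3 and C4a include 0 in every contrast.

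Neutrophils and monocytes also carry C5ar1. Of 11 neutrophil markers 2 were measured (Ly6g and Csf3r), whose share of the counts was 0.362 to 0.391% in the Sham lanes, 0.284 to 0.391% in those of TIA 24h and 0.172 to 0.349% in those of TIA 3d. Ly6g, which defines neutrophils, had 10 to 18 counts in the 9 lanes, within the range of the lymphocyte markers. Csf3r, the receptor for a granulocyte growth factor, was counted 89, 42 and 15 times in the Sham lanes, 20, 20 and 16 in those of TIA 24h and 119, 91 and 96 in those of TIA 3d, so that its counts, like those of C5ar1, were higher in the deep TIA 3d lanes. Cd163, the measured 1 of 7 border macrophage markers, took 0.0625 to 0.29% of the counts in the Sham lanes, 0.152 to 0.215% in those of TIA 24h and 0.0477 to 0.0822% in those of TIA 3d. The part of these cells in the C5ar1 values was not tested.

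The ratio of the receptors within a lane does not depend on the factor between lanes. The log2 ratio of C3ar1 to C5ar1 was 1.51, 1.19 and -0.08 in the Sham lanes, -0.53, -0.25 and 0.51 in those of TIA 24h and 1.15, 1.63 and 1.45 in those of TIA 3d. All TIA 3d ratios were above all TIA 24h ratios, and Sham overlapped both. Between the time points the ratio differed by 1.50, with 1.41 ± 0.24 (SD, n = 3) at TIA 3d and -0.09 ± 0.54 at TIA 24h (two-sided exact permutation p = 0.1, the smallest that 3 against 3 can give, 0.3 after adjustment over 18 tests of 6 pairs), and by 1.28 to 1.80 with a lane left out. The ratios that involve C3 or C4a are not given, since those genes were near the counts of lymphocyte markers. Against Sham (0.87 ± 0.84) the ratio differed by 0.54 at TIA 3d (exact permutation p = 0.5; 0.061 without Sham replicate 3) and by -0.96 at TIA 24h (p = 0.2). The depth limits this ratio. In Sham replicate 2, C5ar1 had fewer counts (18) than the highest lymphocyte marker (21), and in Sham replicate 3 and the TIA 24h lanes both receptors had 16 to 39 counts against highest lymphocyte counts of 11 to 16. These are also the 4 lanes where microglia markers took 3.4% or less of the counts, and whether that content bears on the ratio was not tested.

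**Figure D3:**
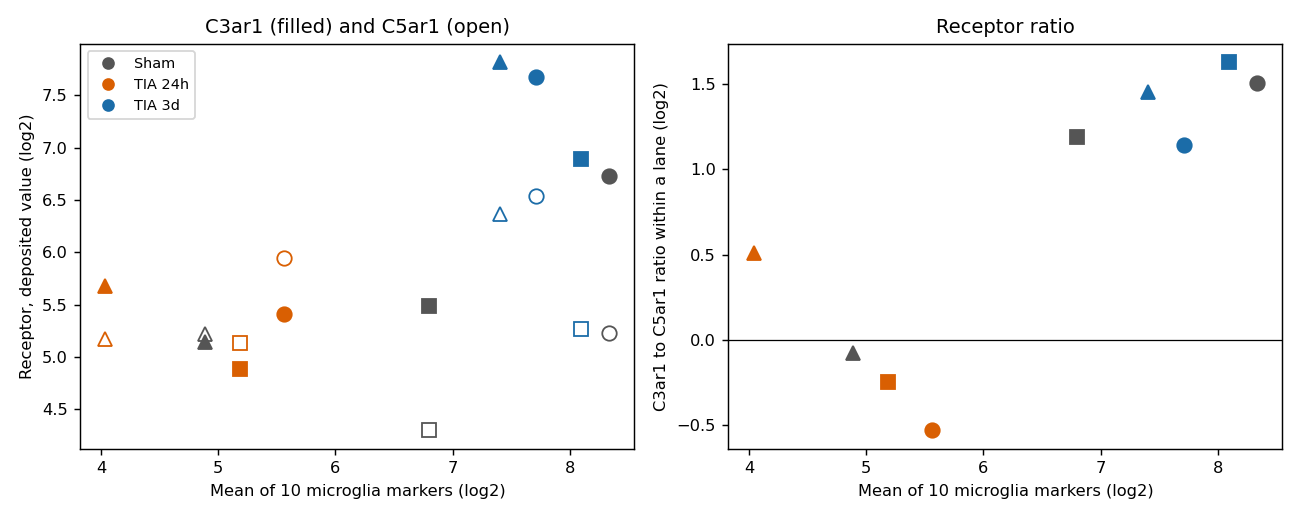
Left, log2 values of C3ar1 (filled) and C5ar1 (open) against the mean log2 value of 10 microglia markers in the same lane. Right, the log2 ratio of C3ar1 to C5ar1 within a lane against the same axis (circle, square and triangle, replicates 1, 2 and 3). The ratio lies between 1.15 and 1.63 in the 5 lanes with a marker mean of 6.8 or more and between -0.53 and 0.51 in the 4 lanes with a mean of 5.56 or less.

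C3, the central component on which the activation routes converge, was low in every lane and showed no order of the groups. It was counted 9, 9 and 9 times in the Sham lanes, 12, 13 and 4 in those of TIA 24h and 25, 12 and 8 in those of TIA 3d, and its log2 values were 3.11, 3.30 and 4.14, then 4.24, 4.59 and 2.92, then 3.81, 3.36 and 2.13. The equal Sham counts thus gave unequal log2 values, through the lane factors alone. C3 differed from Sham by 0.40 at TIA 24h (SE 0.56, 95% interval -0.80 to 1.60, limma adjusted p = 0.851) and by -0.42 at TIA 3d (95% interval -1.62 to 0.79, adjusted p = 0.677). The difference between the time points was -0.82 (95% interval -2.02 to 0.39, limma adjusted p = 0.286). It passed, as lower at TIA 3d, with counts scaled to the lane total (-1.80, adjusted p = 0.03), with lanes centred on the microglia markers (-3.63, 0.00437) and in voom on the recovered counts (-1.97, 0.0155), scales on which 379, 559 and 385 of 757 genes passed. Over all alternatives its adjusted p ran from 0.00437 to 0.987.

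C4a was lower still. In the RefSeq table (GRCm38.p6) C4a is listed as a transcribed pseudogene. Its close copy C4b encodes the C4 protein and was not analysed here, and probe sequences were not used, so that transcripts of C4b cannot be told apart from those of C4a in these values. C4a was counted 10, 6 and 6 times in the Sham lanes, 8, 2 and 3 in those of TIA 24h and 5, 7 and 30 in those of TIA 3d, with log2 values of 3.26, 2.71 and 3.56, of 3.66, 1.89 and 2.51, and of 1.49, 2.58 and 4.04. TIA 3d replicates 1 and 3 held the lowest and the highest value of all lanes. The differences were -0.49 at TIA 24h against Sham (95% interval -1.84 to 0.86, limma adjusted p = 0.843), -0.47 at TIA 3d against Sham (-1.82 to 0.88, adjusted p = 0.676) and 0.02 between the time points (-1.33 to 1.37, adjusted p = 0.988). Without TIA 3d replicate 3, the last of these was -0.65, and without TIA 3d replicate 1 it was 0.63. The TIA 3d mean of C4a thus rested on those animals. With lanes centred on the microglia markers, C4a passed as lower at TIA 3d than TIA 24h (-2.79, limma adjusted p = 0.0197), a scale on which 559 of 757 genes passed.

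**Figure D4:**
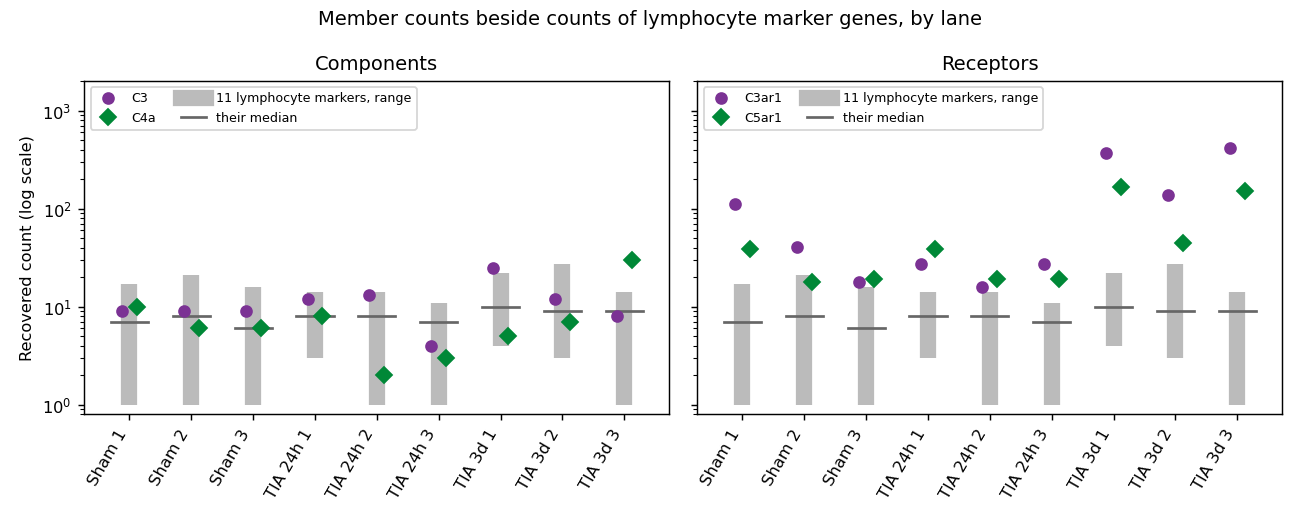
Recovered counts (y axis, log scale) of C3 and C4a (left) and of C3ar1 and C5ar1 (right) in each lane (x axis), over the range (bar) and median (line) of 11 lymphocyte marker genes in that lane. C3 and C4a exceed the bar in 1 lane each, C5ar1 in 8 and C3ar1 in 9 of 9 lanes.

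Counts of genes that sorted microglia should lack show how low these levels were. Of 16 lymphocyte markers 11 were measured, each with its own probe, and their counts ran from 1 to 27 over all lanes, with a median of 6 to 10 per lane. C3 was above every lymphocyte marker in 1 of 9 lanes (TIA 3d replicate 1), and C4a also in 1 (TIA 3d replicate 3). C4a was at or below the median of those markers in 7 lanes and C3 in 2. At this depth, a change of C3 or C4a was not detectable apart from such low counts. C5ar1 exceeded all lymphocyte markers in 8 lanes (not in Sham replicate 2) and C3ar1 in 9. In Sham replicate 3 and TIA 24h replicates 1, 2 and 3, C3ar1 had 18, 27, 16 and 27 counts and C5ar1 19, 39, 19 and 19, against highest lymphocyte counts of 16, 14, 14 and 11.

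Astrocytes are a further source of C3 and C4. Their 7 measured markers of 12 took 0.383 to 0.671% of the counts in the Sham lanes, 0.69 to 1.01% in those of TIA 24h and 0.189 to 0.312% in those of TIA 3d. In the same order, the 10 measured oligodendrocyte markers of 13 took 0.532 to 5.75%, 2.44 to 5.47% and 0.31 to 0.596%, the 9 measured neuron markers of 12 took 0.321 to 0.793%, 0.723 to 0.993% and 0.172 to 0.305%, and the 5 measured endothelium markers of 9 took 0.164 to 0.518%, 0.467 to 0.524% and 0.0951 to 0.158%. The share of the 11 lymphocyte markers was likewise 0.324 to 1.13%, 0.787 to 1.05% and 0.148 to 0.418%. All these shares were lower in the deeper TIA 3d lanes than at TIA 24h. Summed counts at TIA 24h and TIA 3d overlapped for astrocytes (50 to 110 and 91 to 161), oligodendrocytes (193 to 598 and 172 to 307) and endothelium (37 to 55 and 46 to 60). They were higher at TIA 3d without overlap for neurons (71 to 79 and 89 to 111) and lymphocytes (71 to 86 and 93 to 122). The part of such cells in the C3 and C4a values was not tested. Over the 9 lanes C3 gave an r of -0.563 with the log2 total count (exact permutation p = 0.115, adjusted 0.153; rho -0.417, p = 0.27, adjusted 0.36) and C4a an r of 0.0146 (exact permutation p = 0.97, adjusted 0.97; rho 0.0667, p = 0.88, adjusted 0.88). Without TIA 3d replicates 1 and 3 these were -0.479 (exact permutation p = 0.27) and 0.0443 (p = 0.916), and over the Sham and TIA 24h lanes -0.455 (p = 0.378) and 0.226 (p = 0.662).

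The genes most like C3 over the 9 lanes were Bag3 (r of 0.913), a co-chaperone, Emcn (0.893), an endothelial sialomucin, and Tbc1d4 (0.875), and after median centring Bag3 (0.876), Emcn (0.842) and Fgf13 (0.831). For C4a they were Cxcl10 (0.941), an interferon-induced chemokine, Ncr1 (0.734), a receptor of natural killer cells, and Dab2 (0.711), and after median centring Cxcl10 (0.941), Tmem144 (0.743) and Ncr1 (0.736). With counts this low, these likenesses are no more than a description of 9 lanes.

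Counted together, 0 of the 4 members passed at TIA 24h against Sham in limma and 0 in voom, where 0% of all genes did. At an unadjusted p under 0.05 there were again 0 members, against 7.53% of genes, and no member had groups without overlap, against 9.78%. At TIA 3d against Sham, 0 of 4 passed in limma (0% of genes) and also 0 in voom. Both receptors had an unadjusted p under 0.05 as higher, which held for 13.3% of genes (19.6% in either direction). They were also the members whose TIA 3d values all lay above Sham, which held for 15.1% of genes (24.2% without overlap in either direction). Between the time points 1 member, C3ar1, passed in limma, against 19.2% of genes in either direction (in voom the 1 member was C3, as lower, and not C3ar1), and 1 had an unadjusted p under 0.05, against 40.2% (19.4% as higher). Groups without overlap made up 48.3% of genes in that contrast, and 1 of 4 members. In the F test in limma 0 members passed (0% of genes; 1 member, C3, in voom, which called 294 of 757 genes), and 1 had an unadjusted p under 0.05, against 31% of genes.

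Of the other complement genes looked for, 7 were measured. At TIA 3d against TIA 24h, 4 of the 7 passed as higher and 0 as lower (11.6% of all genes passed as higher), with a median difference of 2.20 over the 7 genes, against -0.25 over all genes. They were the C1q subunit genes C1qa (3.38, SE 0.72, limma adjusted p = 0.0229), C1qb (3.34, adjusted p = 0.0245) and C1qc (3.65, adjusted p = 0.0229), and Itgam (2.20, adjusted p = 0.0334), the alpha chain of CR3. The C1q genes were also higher by estimate under the 4 other scalings tried, but none passed after quantile normalization (0.34 to 0.59) or with lanes centred on the microglia markers (0.53 to 0.84), where Itgam turned to -0.61. Each of the 4 calls was lost with any of 4 lanes removed (replicates 2 and 3 of TIA 24h, replicates 1 and 3 of TIA 3d), and that of Itgam also without TIA 3d replicate 2. The others did not pass between the time points on the deposited scale, with differences of 0.17 for C6, a component of the membrane attack complex, -1.0 for Itgax, the alpha chain of CR4, and 0.12 for Serping1, the C1 inhibitor. The split depended on the scaling. With counts scaled to the lane total, C1qa, C1qb and C1qc passed as higher and Itgax as lower (-1.97, limma adjusted p = 0.0143), and Itgam did not pass (1.20, 0.0639). With lanes centred on the microglia markers, 0 of the 7 passed as higher, and Itgax (-3.81, limma adjusted p = 0.00381), C6 (-2.64, 0.022) and Serping1 (-2.69, 0.0307) passed as lower, where the median gene differed by -3.06.

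Against Sham, 0 of the 7 passed at either time in limma and 0 in voom. At TIA 3d the smallest p values were those of C1qa (2.38, limma adjusted p = 0.158), C1qc (2.43, 0.158) and C1qb (2.59, 0.16), which were the 3 genes of the list with an unadjusted p under 0.05 (19.6% of all genes). At TIA 24h they were those of Itgam (-1.20, limma adjusted p = 0.715), C1qc (-1.22, 0.722) and C1qa (-1.0, 0.742), and no gene of the list had an unadjusted p under 0.05 (7.53% of all genes). The median difference over the list was 1.00 at TIA 3d and -0.75 at TIA 24h, against -0.01 and 0.15 over all genes. The contrasts against Sham share the Sham lanes, so that the values at both times are given side by side only.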

How the data were processed

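Panel counts of 9 samples (3 per group, grouped by their titles) were analysed. The deposited values are log2 of counts which the authors normalized in ROSALIND to the housekeeping probes (geometric mean, chosen by geNorm) of each lane. Genes below the highest negative control were left out of the authors' analysis, and whether this shaped the table is not given in the sources used here. Whole counts were recovered per lane, since the unlogged values came out as multiples of the same step (100% of values, tolerance 0.01 counts). All 757 symbols were checked against RefSeq (GRCm38.p6; 750 current, 7 older).

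Each gene was fitted on the log2 values with a mean per group in limma 3.58.1 (R 4.3.3; prior degrees of freedom 7.23), with p values two-sided and adjusted by Benjamini-Hochberg over 757 genes at a threshold of 0.05. The fit was tested on simulated data. Ratios of members within a lane, and correlations of members with the log2 total count, were tested by two-sided exact permutation over samples. Counting error and the number of animals limit the precision, and labels do not say more on how replicates were made, so that p values measure the spread between these samples. The members, the lists and the tests were chosen with earlier results of these data known. By rule, the text names the 4 members, complement genes past the threshold or with the 3 smallest p values, and the 3 genes most correlated with each member. Genes named beyond it (Itgax, C6, Serping1 and cell type markers) complete their lists. The level of the monocyte markers is not reported here.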

Additional observations from a re-analysis of the deposited data

Results flagged for a closer look

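For 5 complement genes the change from Sham at TIA 3d differed from that at TIA 24h, by the limma contrast between the time points, in which 19.2% of all 757 genes were called and 11.6% as higher. The difference was 2.14 for C3ar1 (higher at TIA 3d than every TIA 24h value in 3 of 3 animals, limma adjusted p = 0.0229), 3.38 for C1qa, 3.34 for C1qb, 3.65 for C1qc and 2.2 for Itgam, each also in 3 of 3 animals. Such a separation, with every TIA 3d value above every TIA 24h value, held for 22.1% of all genes. When each of the 9 lanes was left out in turn, C3ar1 and the C1q genes passed in 5 fits and Itgam in 4. None of the 5 genes passed after quantile normalization or with lanes centred on the microglia markers. Groups of 3 were too small to look for single outlying samples.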

How the results depend on the processing

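Between TIA 3d and TIA 24h the median of all genes was -0.25 as deposited, 0.09 with median-centred lanes, -0.03 after quantile normalization, -1.27 with the lane total and -3.06 with the microglia markers, and the values under each scaling were not corrected for that shift. For C3ar1 the difference between TIA 3d and TIA 24h was 0.57 after quantile normalization, 0.36 when the total count was a covariate, 2.14 in the ordinary linear model and 1.13 in voom, where it did not pass (adjusted p of 0.0912 to 0.987), and -0.67 with lanes centred on the microglia markers. C3 in that contrast was -1.80 with counts scaled to the lane total, -3.63 with lanes centred on the microglia markers and -1.97 in voom, all past the threshold, and 0.27 when it was the covariate. C4a was -1.05, -2.79 (past the threshold), -1.04, -0.47 and -0.36 with the lane total, the microglia markers, voom, the covariate and array weights, and C5ar1 -0.33, -2.17, -0.43, -0.13 and -0.50 with the lane total, the microglia markers, voom, the covariate and quantile normalization. The number of members past the threshold, 1 (145 of 757 genes), became 0 with quantile normalization (7 genes), the covariate (0) and the ordinary linear model (0). It became 2 with the lane total (C3ar1 and C3; 379 genes) and with the microglia markers (C3 and C4a, not C3ar1; 559 genes). Genes called were 385 in voom, 314 with array weights and 249 with only these groups fitted. The other complement genes past the threshold, 4, became 0 in the first 3 of these. With the lane total they were C1qa, C1qb, C1qc and, as lower, Itgax. With the microglia markers they were C6, Itgax and Serping1, all lower.

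At TIA 3d against Sham, array weights gave 1.95 for C3ar1 and 1.76 for C5ar1, both past the threshold (2 members, 3 other complement genes, 174 of all 757 genes), and 0.015 for C3, which was 0.37 with the covariate. At TIA 24h against Sham, centring on the microglia markers gave 1.25 for C4a and 1.28 for C3ar1, and the covariate 0.026 for C3ar1. In the F test C3ar1 passed with median-centred lanes (F = 11.88), without genes of low mean (11.18) and with array weights (22.02), C5ar1 with array weights (10.29), and C3 with the microglia markers (6.14) and in voom (5.13), which makes 1 member in each and 2 with array weights. Other complement genes past the F test were 3 with median centring and without low genes, 4 with the lane total, array weights and voom, and 1 with the microglia markers. Of all genes, 0 passed the F test as deposited, 52 with median centring, 40 without low genes, 50 with an intensity trend, 244 with the lane total, 445 with the microglia markers, 295 with array weights and 294 in voom.

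Replicate numbers were not treated as pairs in the main fit. Correlations of deviations were -0.237 to 0.271 for the same number and -0.373 to 0.305 for different numbers. With 3 samples per group these cannot exclude pairing. With the replicate number as a block, C3ar1 passed the F test (F = 11.77; 1 member, 3 other complement genes, 54 of all genes), and the block changed no other call of the members.

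Leaving out each sample gave 1.92 to 2.42 for C3ar1, -1.31 to -0.33 for C3, -0.65 to 0.63 for C4a and 0.40 to 1.03 for C5ar1 between the time points, 1.35 to 2.15, -0.77 to 0.067, -1.14 to 0.13 and 0.83 to 1.53 at TIA 3d against Sham, and -0.78 to 0.010, 0.06 to 0.90, -0.98 to -0.10 and 0.19 to 0.66 at TIA 24h against Sham. The F of C3ar1 was 6.29 to 16.4. Members past the threshold were 0 to 1 and other complement genes 0 to 4 in the F test and between the time points, and 0 to 1 and 0 to 3 at TIA 3d against Sham, while 0 to 136, 0 to 226 and 0 to 84 of all 757 genes passed in the F test, between the time points and at TIA 3d against Sham. The r of C4a with the total was -0.401 to 0.432.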
